A study of Homo sapiens with 12 samples.

Results

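The 33 genes described here belong to the integrated stress response and the unfolded protein response, the programmes by which cells answer amino acid shortage, other translation stress and misfolded protein in the endoplasmic reticulum (ER). They are textbook ATF4, XBP1 and ATF6 pathway genes, listed by name, but with earlier results of these data known. They comprise 14 genes of the ATF4 arm, 11 ER chaperones and folding enzymes, 4 genes of ER-associated degradation, and 4 stress sensors or their transcription factors. All 33 were found among the 60669 genes of the count table, and all 33 were among the 16393 genes with enough counts to test. They were measured by RNA-seq of polyadenylated RNA in HT1080, an established human fibrosarcoma line, in 12 libraries. Every library came from cells carrying dCas9, the cutting-dead Cas9 of CRISPR interference, with a stable guide RNA, grown under blasticidin and puromycin to keep both. The LTR8B guide is directed at a retroviral LTR8B element in the first intron of SP140, an immune regulator of transcription, and the GFP guide is the control. Cells of either guide were given 10 U/mL interferon beta (IFNB) for 4 h or left untreated, which gave 4 LTR8B libraries with IFNB, 4 LTR8B libraries untreated, 2 GFP libraries with IFNB and 2 GFP libraries untreated. A single stable line stands for each guide, so guide and line cannot be told apart, and the labels do not say whether replicates were separate cultures. The p-values below therefore measure only the spread between these libraries, which may be technical.

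In the integrated stress response, 4 kinases each sense a different stress and phosphorylate the translation factor eIF2: PERK (EIF2AK3) at the ER membrane, PKR (EIF2AK2) on double-stranded RNA, and GCN2 and HRI elsewhere. Most translation then slows while translation of ATF4 mRNA goes up, and ATF4 switches on genes of amino acid supply, the factor CHOP (DDIT3) and feedback regulators. In the unfolded protein response, PERK is joined by IRE1 (ERN1), which splices XBP1 mRNA, and by ATF6, which is cleaved in the Golgi, and XBP1 and ATF6 raise chaperones and the degradation machinery. Much of this signalling runs through phosphorylation, splicing, cleavage and translation, which gene-level counts of mRNA do not show. The EIF2AK2 gene is itself induced by interferon, which makes interferon treatment a case in which 1 eIF2 kinase gene moves by a known route.

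Library totals ran from 12404270 counts in LTR8B replicate 3 with IFNB to 28801579 counts in LTR8B replicate 3 untreated, and the 33 genes together held 0.740 to 0.9005% of them. Values are given as CPM, counts relative to the library total after TMM scaling, and they are not divided by gene length, so levels are compared between libraries and not between genes. SP140 was at 0.90 to 1.48 CPM with IFNB and 0.52 to 1.84 CPM untreated in LTR8B libraries, against 29.8 to 32.0 CPM in the 4 GFP libraries. The interferon-induced gene IFIT1 was at 2303 to 3016 CPM with IFNB and 7.35 to 11.9 CPM untreated, ISG15 at 179 to 297 CPM with IFNB and 6.36 to 8.39 CPM untreated, and MX1 at 8.27 to 14.2 CPM with IFNB and at most 2.40 CPM untreated. The labels of guide and treatment thus held in every library. The mesenchymal marker VIM was high in every library (3063 to 3953 CPM), COL1A1 was low (1.24 to 3.03 CPM), and the epithelial EPCAM and KRT5, the blood cell marker PTPRC and the neural SOX10 were at or near 0. The epithelial keratins KRT8 and KRT18 were present in every library, at 225 to 300.3 CPM and 122 to 155 CPM, and made up nearly all of the 358 to 444 CPM to which the 6 epithelial markers summed.

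Promoters were read first, because the ER stress element to which ATF6 and NF-Y bind was defined in genes of this kind. In the RefSeq table for GRCh38.p14, which holds 250 bases before and 50 after each gene start, 32 of the 33 genes were matched, all but SHMT2. Some genes have several start sites, so these 32 genes have 44 windows, and a gene is counted once if any of its windows holds the motif. Both strands were searched for 4 published motifs: the ER stress element (ERSE, the letters CCAAT and CCACG with 9 bases of any kind between them), its second form (ERSE-II, ATTGG and CCACG with 1 base between them), the unfolded protein response element core (UPRE, TGACGTGG) and the C/EBP-ATF response element bound by ATF4 (CARE, TGATGNAA). No matches of different motifs overlapped in these genes. ERSE was found in 7 of 32 genes (21.9%), against 25 of all 27305 genes with a window (0.0916%). ERSE-II was found in 2 of 32 (6.25%), against 0.0696% of all such genes, and CARE in 3 of 32 (9.38%), against 4.46%. UPRE was found in 0 of 32, against 0.927%. Because ERSE was defined in genes of this kind, its high share here follows in part from the choice of genes and is not a result. A match is a description of these letters, not a bound site. The ERSE and ERSE-II matches are shown so that the chaperone genes can be read side by side. They are written on the motif strand, 5′ to 3′, and capitals mark the fixed letters of the motif. SDF2L1 and HERPUD1 have ERSE-II, the others ERSE, and HSP90B1 has 2 ERSE matches.
HSPA5, chr9:125241391-125241409, minus strand: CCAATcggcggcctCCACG
HSP90B1, chr12:103930216-103930234, plus strand: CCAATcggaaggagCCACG
HSP90B1, chr12:103930321-103930339, minus strand: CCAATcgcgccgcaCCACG
PDIA6, chr2:10812853-10812871, minus strand: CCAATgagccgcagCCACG
CALR, chr19:12938384-12938402, minus strand: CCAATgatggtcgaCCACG
CANX, chr5:179698778-179698796, plus strand: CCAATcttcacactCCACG
CRELD2, chr22:49918554-49918572, minus strand: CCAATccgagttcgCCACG
XBP1, chr22:28800603-28800621, minus strand: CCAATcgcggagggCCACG
HERPUD1, chr16:56932025-56932035, plus strand: ATTGGgCCACG
SDF2L1, chr22:21642114-21642124, minus strand: ATTGGtCCACG

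Whole promoters are shown for the genes on which the results below turn, each on its gene's strand with motif matches in capitals. Only exact matches were counted, so a stretch that differs from a motif by 1 fixed letter is not marked. HSPA5 (chr9:125241294-125241593, minus strand) has 1 exact ERSE match, starting 66 bases before the gene start. HERPUD1 (chr16:56931892-56932191, plus strand) has a CARE read on the opposite strand and an ERSE-II. ASNS (chr7:97872359-97872658, minus strand, 1 of its 2 windows) has 1 CARE. The STC2 window (chr5:173328365-173328664, minus strand) has 0 matches, which says only that these letters are not in it.
HSPA5: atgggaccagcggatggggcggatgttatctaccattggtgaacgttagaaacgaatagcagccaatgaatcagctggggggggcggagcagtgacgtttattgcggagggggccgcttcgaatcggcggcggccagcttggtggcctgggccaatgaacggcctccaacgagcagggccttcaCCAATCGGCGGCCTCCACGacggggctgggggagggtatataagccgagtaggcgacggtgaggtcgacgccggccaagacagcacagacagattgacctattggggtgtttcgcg
HERPUD1: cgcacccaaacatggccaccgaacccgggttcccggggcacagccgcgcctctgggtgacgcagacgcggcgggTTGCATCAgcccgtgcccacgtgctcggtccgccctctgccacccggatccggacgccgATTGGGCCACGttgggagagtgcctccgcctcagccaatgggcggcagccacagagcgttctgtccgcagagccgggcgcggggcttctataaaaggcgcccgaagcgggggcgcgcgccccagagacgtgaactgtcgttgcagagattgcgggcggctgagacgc
ASNS: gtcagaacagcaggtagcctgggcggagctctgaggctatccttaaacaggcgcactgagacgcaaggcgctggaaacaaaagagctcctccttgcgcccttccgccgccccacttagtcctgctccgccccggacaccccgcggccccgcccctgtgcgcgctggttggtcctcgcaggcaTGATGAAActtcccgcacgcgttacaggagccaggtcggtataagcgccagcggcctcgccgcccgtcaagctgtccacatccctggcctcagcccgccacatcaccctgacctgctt
STC2: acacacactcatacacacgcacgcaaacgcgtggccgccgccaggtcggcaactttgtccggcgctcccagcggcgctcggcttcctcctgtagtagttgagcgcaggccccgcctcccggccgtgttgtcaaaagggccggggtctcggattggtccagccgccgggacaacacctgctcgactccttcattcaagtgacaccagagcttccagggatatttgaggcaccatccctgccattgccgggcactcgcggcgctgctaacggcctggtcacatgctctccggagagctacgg

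The first question was whether the LTR8B guide, under which SP140 is low, went with other levels of the stress genes. Over both treatments, 1 of the 33 genes differed: STC2 was higher in LTR8B than in GFP libraries, and the other 32 did not pass the test (edgeR quasi-likelihood test, Benjamini-Hochberg adjusted p under 0.05 over all 16393 genes). Of all genes tested, 2.14% passed in this comparison and 1.15% passed as higher, so 1 of 33 is near the background. With IFNB and untreated taken separately, 0 of the 33 passed, against a background of 0.354% with IFNB and 0.36% untreated. At an unadjusted p under 0.05 there were 3 of 33 with IFNB (9.48% of all genes) and 4 of 33 untreated (11.2%), and DESeq2 called 1 of the 33 untreated, STC2, and 0 with IFNB. The guide groups did not overlap for 7 of 33 with IFNB and 6 of 33 untreated, near the 19% and 19.6% of all genes. The median log2 fold change of the 33 was 0.05 over both treatments, against 0.0012 for all genes. Of the 33 estimates, 25 lay above 0 and 8 below, and they ran from -0.17 to 0.30. Without the replicate 4 library of both LTR8B groups, which stood apart for many of these genes as described further on, 18 lay above 0 and 15 below, with a median of 0.0087. In bulk RNA, fewer cells with a high level and less RNA per cell cannot be told apart.

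STC2, a secreted glycoprotein hormone and long-known ATF4 target, was at 129, 134, 119 and 148 CPM in the LTR8B libraries with IFNB, against 113 and 111 CPM in the GFP libraries with IFNB. Untreated, it was at 126, 134, 124 and 152 CPM in LTR8B libraries and at 103 and 107 CPM in GFP libraries. Every LTR8B library stood above every GFP library of the same treatment. The mean was 132 ± 12.2 CPM in LTR8B cells with IFNB and 112 ± 1.30 CPM in GFP cells with IFNB, and 134 ± 12.6 CPM in untreated LTR8B cells and 105 ± 2.58 CPM in untreated GFP cells (SD, n = 4 LTR8B and 2 GFP libraries each). Averaged over treatments, the log2 fold change of 0.30 ± 0.06 (SE) had an edgeR adjusted p of 0.0202, a 1.23-fold difference with a 95% interval of 1.12 to 1.35. The gene lies at chr5:173314713-173329503 on the minus strand (hg38) and no other annotated gene overlaps it. The call rests on few control libraries: without GFP untreated replicate 1 or 2 the edgeR adjusted p was 0.0948 or 0.105, and without GFP IFNB replicate 1 or 2 it was 0.0697 or 0.0915, while the log2 fold change ran from 0.24 to 0.32 over all alternatives.

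**Figure D1:**
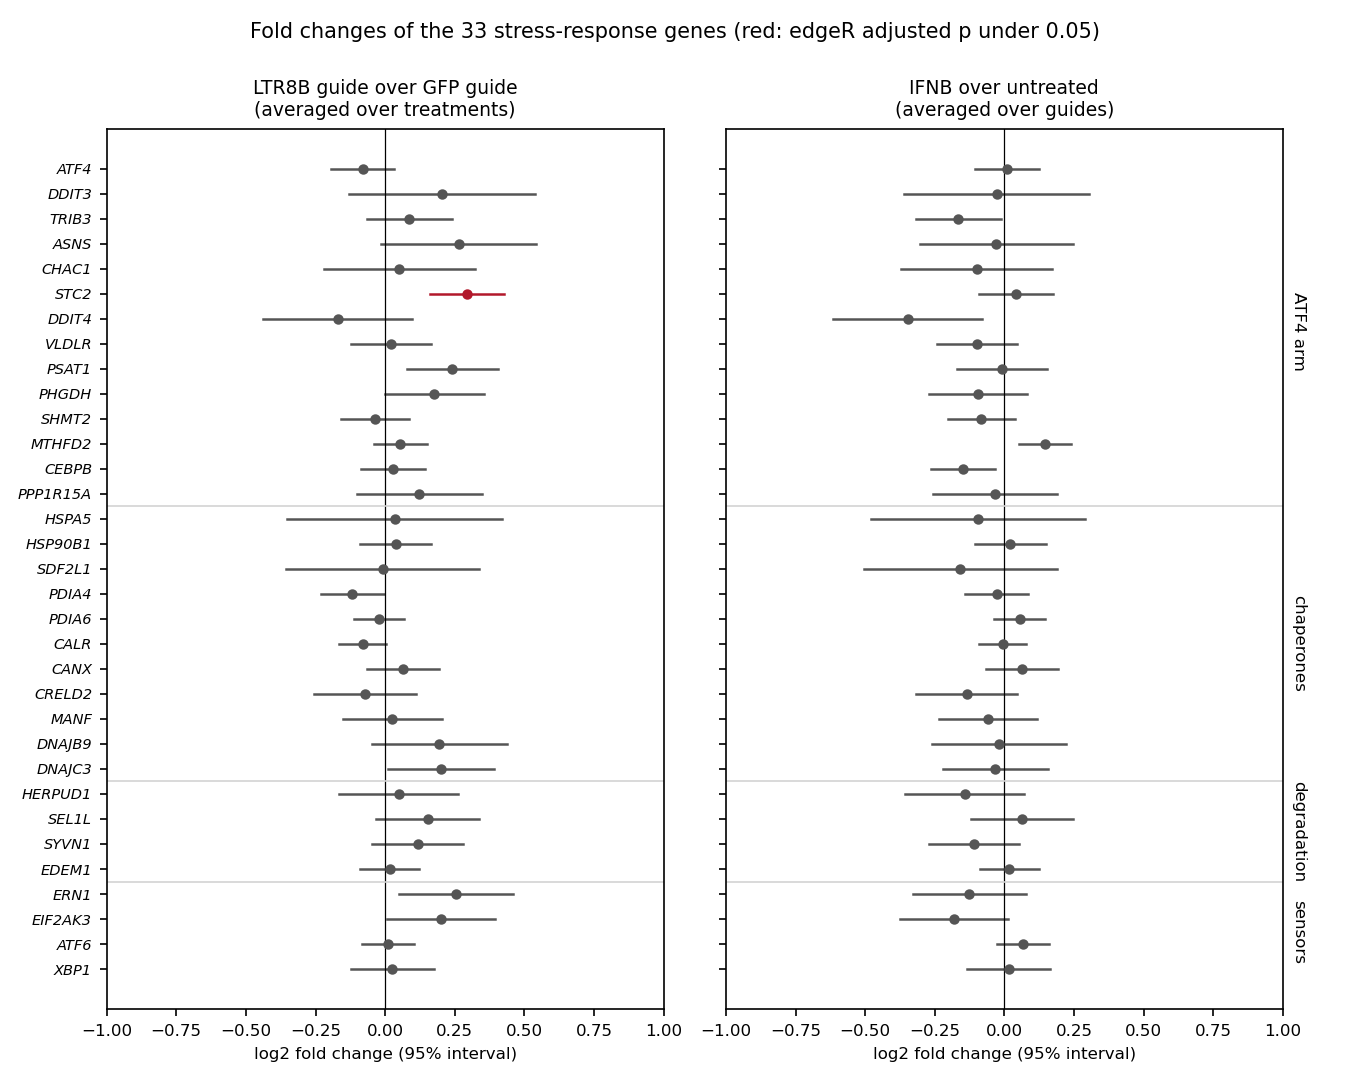
Log2 fold changes (points) with 95% intervals (bars) of the 33 genes, for LTR8B over GFP averaged over treatments (left) and IFNB over untreated averaged over guides (right), ordered by role. STC2, in red on the left at 0.30, is the 1 gene past the edgeR threshold, and the estimates for IFNB run from -0.35 to 0.15 with none past it.

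Amino acid and one-carbon genes of the ATF4 arm gave several of the other large estimates for the guide, none of them past the threshold. PSAT1, the aminotransferase of serine synthesis, was at 233, 248, 213 and 275 CPM in LTR8B libraries with IFNB and 204 and 208 CPM in GFP libraries with IFNB. Untreated, PSAT1 was at 230, 244, 215 and 292 CPM in LTR8B libraries and 204 and 209 CPM in GFP libraries. All LTR8B libraries were again above the GFP libraries of their treatment, with a log2 difference of 0.24 (edgeR adjusted p = 0.125, SE 0.08). PSAT1 passed with DESeq2 (adjusted p = 0.049) and without the low-count filter (edgeR adjusted p = 0.00177). ASNS, asparagine synthetase, was at 95.1, 101, 81.8 and 119 CPM in LTR8B libraries with IFNB and 81.3 and 79.1 CPM in GFP libraries with IFNB, and untreated at 90.2, 98.8, 77.4 and 127 CPM in LTR8B libraries and 82.4 and 86.5 CPM in GFP libraries. Its groups overlapped untreated, where LTR8B replicate 3 was below both GFP libraries, and the log2 difference over treatments was 0.26 (edgeR adjusted p = 0.343, SE 0.13). PHGDH, the first enzyme of serine synthesis, differed by 0.18 on the log2 scale (edgeR adjusted p = 0.320), and the mitochondrial folate enzymes SHMT2 and MTHFD2 by -0.04 and 0.05.

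None of the transcription factors and feedback genes of the ATF4 arm passed the test between guides. ATF4 itself was at 300.2, 293, 284 and 260.4 CPM in LTR8B libraries with IFNB, against 297 and 279 CPM in GFP libraries with IFNB. Untreated, ATF4 was at 273, 291, 240.3 and 280.4 CPM in LTR8B libraries, against 293 and 306 CPM in GFP libraries. The log2 difference was -0.08 (edgeR adjusted p = 0.499), with a 95% interval from 0.873-fold to 1.02-fold. DDIT3, the pro-apoptotic factor CHOP, was at 11.4, 15.9, 12.4 and 16.4 CPM in LTR8B libraries with IFNB and 12.4 and 13.2 CPM in GFP libraries with IFNB. Untreated, DDIT3 was at 12.6, 15.8, 11.3 and 20.9 CPM in LTR8B libraries and 13.3 and 11.6 CPM in GFP libraries. The LTR8B libraries lay on both sides of the GFP libraries, and the log2 difference of 0.20 had a SE of 0.15. DDIT3 (chr12:57516588-57521737) overlaps MARS1, a far more abundant gene that ends at 57517569, over part of its length. Whether the counting used strand is not stated, so reads from the shared stretch may not be told apart. The same holds for SYVN1 and DNAJB9, whose overlapping genes hold 603% and 317% as many counts as they do, and to a lesser degree for CRELD2 (85.4%). These shares take all counts of the overlapping genes, not only those from the shared stretch. TRIB3, a pseudokinase that dampens ATF4 output, differed by 0.09, and CHAC1, which degrades glutathione, by 0.05. CEBPB, a partner of ATF4, differed by 0.03, PPP1R15A, which recruits the eIF2 phosphatase, by 0.12, and the lipoprotein receptor VLDLR by 0.02. DDIT4, an inhibitor of mTORC1, was the lowest estimate of the 33 at -0.17 (edgeR adjusted p = 0.549, SE 0.13).

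ER chaperones and folding enzymes gave 6 estimates above 0 and 5 below, with a median log2 fold change of 0.03, and 0 of the 11 passed. Without both LTR8B replicate 4 libraries there were 3 above 0 and 8 below. HSPA5, the master ER chaperone BiP, was at 922, 1121, 953 and 1315 CPM in LTR8B libraries with IFNB and 995 and 1057 CPM in GFP libraries with IFNB. Untreated, HSPA5 was at 903, 1104, 876 and 1602 CPM in LTR8B libraries and 1101 and 1147 CPM in GFP libraries. The LTR8B libraries enclosed the GFP values in both treatments, and the log2 difference was 0.03 (edgeR adjusted p = 0.955, SE 0.17), with a 95% interval from 0.784-fold to 1.34-fold. Without the replicate 4 library of both LTR8B groups it was -0.13, still not past the threshold. HSP90B1, the ER form of HSP90, differed by 0.04, and the lectin chaperones CALR and CANX by -0.08 and 0.06. Among the disulfide isomerases, PDIA4 differed by -0.12 (edgeR adjusted p = 0.291, SE 0.05) and PDIA6 by -0.02. The ER proteins SDF2L1, CRELD2 and MANF differed by -0.01, -0.07 and 0.03. DNAJB9 and DNAJC3, cochaperones of BiP, gave the highest estimates of the 11 at 0.19 and 0.20, and DNAJC3 had an edgeR adjusted p of 0.287. Without the low-count filter DNAJC3 passed, at 0.21 (edgeR adjusted p = 0.0289).

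Genes of ER-associated degradation and the sensors all had estimates above 0 in the fit of all 12 libraries, and none passed. Without both LTR8B replicate 4 libraries, HERPUD1 (-0.04), EDEM1 (-0.01) and XBP1 (-0.0059) lay on the other side of 0. HERPUD1, an ER membrane protein of the degradation complex, was at 81.7, 88.4, 83.6 and 96.9 CPM in LTR8B libraries with IFNB and 82.1 and 91.0 CPM in GFP libraries with IFNB. Untreated, HERPUD1 was at 85.2, 102, 82.9 and 126 CPM in LTR8B libraries and 88.6 and 98.8 CPM in GFP libraries, so the groups overlapped in both treatments. Its log2 difference was 0.05 (SE 0.10). SEL1L and SYVN1, the adaptor and the ubiquitin ligase of the same complex, differed by 0.15 and 0.12, and EDEM1, which picks out misfolded glycoproteins, by 0.02. Among the sensors, ERN1 was at 10.1, 11.5, 10.8 and 13.0 CPM in LTR8B libraries with IFNB and 10.0 and 8.85 CPM in GFP libraries with IFNB. Untreated, ERN1 was at 11.2, 11.0, 12.1 and 14.9 CPM in LTR8B libraries and 10.4 and 10.4 CPM in GFP libraries. With STC2 and PSAT1, ERN1 was 1 of 3 genes of the 33 whose guide groups did not overlap in either treatment, against 5.6% of all genes tested; its log2 difference was 0.25 (edgeR adjusted p = 0.204, SE 0.10). EIF2AK3 differed by 0.20 (edgeR adjusted p = 0.302, SE 0.09), ATF6 by 0.01 and XBP1 by 0.03, and the XBP1 counts do not separate its spliced form.

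Every one of the 33 intervals for the guide, averaged over treatments, lay within 1.5-fold either way, from 0.738-fold for the lower bound of DDIT4 to 1.455-fold for the upper bound of ASNS. Cell type markers also moved with the guide: SNAI2 and COL4A1 were higher and COL1A1, LAPTM5 and CDH5 lower in LTR8B libraries. The 5 blood cell markers summed to 2.70 to 4.59 CPM with IFNB and 3.18 to 4.89 CPM untreated in LTR8B libraries, against 7.29 to 9.60 CPM and 6.20 to 8.48 CPM in GFP libraries, with PTPRC at or near 0 throughout. The 3 endothelial markers summed to 6.73 to 12.4 CPM with IFNB and 7.30 to 10.9 CPM untreated in LTR8B libraries, against 8.21 to 9.01 CPM and 11.0 to 11.6 CPM in GFP libraries. Their part in the result was not tested.

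The second question was whether IFNB changed these genes within 4 h. None of the 33 passed the test, averaged over guides or in LTR8B or GFP cells alone, while 6.29%, 4.5% and 3.2% of all genes tested did. At an unadjusted p under 0.05 there were 4, 3 and 0 of the 33, against 16.6%, 12.9% and 11.3% of all genes. Averaged over guides, DESeq2 called 1 of the 33, MTHFD2. This main fit did not pair libraries by replicate number. With such pairing within each guide, DDIT4 (edgeR adjusted p = 0.0148) and MTHFD2 (0.0242) passed averaged over guides, as did 1598 of all genes. The median log2 fold change averaged over guides was -0.03, against -0.01 for all genes, with 10 estimates above 0 and 23 below. For 32 of the 33 the 95% interval lay within 1.5-fold either way, and the exception was DDIT4, whose lower bound was 0.653-fold. The IFNB and untreated groups did not overlap for 1 of 33 in LTR8B cells (9.12% of all genes) and for 19 of 33 in GFP cells, where 2 libraries face 2 (44.5% of all genes). In both lines this held for 1 gene, CEBPB, against 6.61% of all genes.

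DDIT4 was at 13.1, 12.4, 13.0 and 7.69 CPM with IFNB and 17.0, 14.6, 15.1 and 12.5 CPM untreated in LTR8B libraries, and at 13.2 and 13.1 CPM with IFNB and 14.5 and 18.6 CPM untreated in GFP libraries. In GFP cells both IFNB libraries were below both untreated ones, and in LTR8B cells the groups overlapped through untreated replicate 4. The log2 fold change was -0.35 (edgeR adjusted p = 0.147, SE 0.13), and it passed without the low-count filter (edgeR adjusted p = 0.0024) and without the replicate 4 library of both LTR8B groups, at -0.31 (edgeR adjusted p = 0.044). MTHFD2, the mitochondrial folate enzyme, was at 249.8, 253, 231 and 253 CPM with IFNB and 229, 213, 219 and 231 CPM untreated in LTR8B libraries, and at 231 and 244 CPM with IFNB and 219.8 and 209.7 CPM untreated in GFP libraries. Its IFNB libraries were above the untreated ones apart from LTR8B IFNB replicate 3, just below the highest untreated library, and the log2 fold change was 0.15 (edgeR adjusted p = 0.0652, SE 0.04). Without that library MTHFD2 passed (edgeR adjusted p = 0.044).

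CEBPB was at 94.7, 92.7, 92.7 and 80.2 CPM with IFNB and 104, 108, 98.3 and 98.7 CPM untreated in LTR8B libraries, and at 92.3 and 88.3 CPM with IFNB and 92.7 and 103 CPM untreated in GFP libraries. All IFNB libraries were below the untreated libraries of their guide, by -0.15 on the log2 scale (edgeR adjusted p = 0.141, SE 0.05). TRIB3 had a log2 fold change of -0.16 (edgeR adjusted p = 0.247, SE 0.07) and passed only without LTR8B untreated replicate 3 (edgeR adjusted p = 0.0226). The central genes were close to 0 on the log2 scale: ATF4 0.01 (SE 0.05), XBP1 0.02 (SE 0.07), PSAT1 -0.01 (SE 0.08) and STC2 0.04 (SE 0.06). Of the remaining chaperones and degradation genes, HSPA5 was at -0.09 (SE 0.17), HERPUD1 at -0.14 (SE 0.10), HSP90B1 at 0.02 and CALR at -0.01. The sensors ERN1, EIF2AK3 and ATF6 were at -0.13, -0.18 and 0.07.

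Outside the 33, some genes of the same pathways rose with IFNB, at about the share of all genes. Over the 5 lists together, 6 of 106 tested genes rose averaged over guides (5.66%, against 5.28% of all genes), 6 of 106 in LTR8B cells (4.01% of all genes) and 2 of 106 in GFP cells (3.06%). Of 15 tested kinase, eIF2, eIF2B and phosphatase genes, 1 rose and 0 fell, in LTR8B cells, in GFP cells and averaged: EIF2AK2, the interferon-inducible kinase PKR (chr2:37099210-37157065, minus strand, hg38). It was at 509, 468, 509.6 and 499 CPM with IFNB and 96.1, 78.8, 104 and 93.6 CPM untreated in LTR8B libraries, and at 522 and 597 CPM with IFNB and 86.4 and 79.2 CPM untreated in GFP libraries. The lowest IFNB library was thus far above the highest untreated one in both lines. The log2 fold change was 2.41 (edgeR adjusted p = 1.17e-13, SE 0.08) in LTR8B cells and 2.76 (edgeR adjusted p = 5.19e-12, SE 0.11) in GFP cells, and 2.58 averaged over guides, or 5.99-fold. The guide itself did not shift EIF2AK2 past the threshold, at -0.17 with IFNB (edgeR adjusted p = 0.570) and 0.17 untreated (edgeR adjusted p = 0.502). GPATCH11 overlaps EIF2AK2 and has 15% as many counts.

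Of 27 other tested ATF4 targets, 4 rose and 0 fell with IFNB in LTR8B cells and averaged over guides, and 1 rose in GFP cells. ATF3, a stress-induced repressor that many other signals also switch on (chr1:212565334-212620777, plus strand, hg38), was at 38.7, 43.5, 35.1 and 44.9 CPM with IFNB and 15.3, 20.5, 13.2 and 24.9 CPM untreated in LTR8B libraries. In GFP libraries ATF3 was at 42.4 and 41.7 CPM with IFNB and 18.0 and 20.9 CPM untreated. The groups were well apart in both lines, with a log2 fold change of 1.14 averaged over guides (edgeR adjusted p = 1.9e-04, SE 0.14), or 2.20-fold, 1.15 in LTR8B cells and 1.12 in GFP cells. The GFP call was lost without any 1 GFP library (edgeR adjusted p 0.0944 to 0.205). The others that rose averaged over guides were the transcription factor ATF5 at 0.25 (edgeR adjusted p = 0.0120), whose overlapping genes, NUP62 and IL4I1 among them, hold 317% as many counts, the secreted cytokine GDF15 at 0.25 (edgeR adjusted p = 0.0232) and the p53 target BBC3 at 0.35 (edgeR adjusted p = 0.00552). BBC3 was at 56.1, 57.5, 59.0 and 42.7 CPM with IFNB and 43.2, 43.6, 43.8 and 38.4 CPM untreated in LTR8B libraries, so those groups overlapped through IFNB replicate 4. ATF5 was lost without GFP untreated replicate 2 (edgeR adjusted p = 0.108) and without GFP IFNB replicate 1 (0.0687), GDF15 without GFP untreated replicate 1, GFP IFNB replicate 1 or LTR8B IFNB replicate 1 or 3 (0.0505 to 0.198), and BBC3 without GFP untreated replicate 1 (0.0561). In LTR8B cells alone the calls rested on more libraries: ATF5 was lost without untreated replicate 1, 3 or 4 or IFNB replicate 1 or 2 (edgeR adjusted p 0.0622 to 0.128), and BBC3 without untreated replicate 1 or 4 or IFNB replicate 1, 2 or 3 (0.0641 to 0.114). The GDF15 call there was lost without untreated replicate 1, 3 or 4, IFNB replicate 1, 2 or 3 or GFP IFNB replicate 1 (edgeR adjusted p 0.0536 to 0.177).

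WARS1, the tryptophan tRNA synthetase, which is both an ATF4 target and interferon-inducible, was the 1 of 12 tested tRNA synthetases that rose, in LTR8B cells and averaged over guides. It was at 264, 299.5, 263 and 298 CPM with IFNB and 166, 189, 159.9 and 237 CPM untreated in LTR8B libraries, and at 260.4 and 234 CPM with IFNB and 174 and 183 CPM untreated in GFP libraries. No IFNB library overlapped the untreated ones of its guide, and the log2 fold change was 0.53 averaged over guides (edgeR adjusted p = 0.00155, SE 0.09), or 1.44-fold, and 0.47 in GFP cells (edgeR adjusted p = 0.146). Of 43 other tested ER folding, secretion and degradation genes, 0 passed for IFNB or for the guide, and of 9 other transducers and proteases, 0 passed for IFNB. For the guide over both treatments, 2 of the 106 genes of these lists were higher in LTR8B libraries (1.89%, against 1.15% of all genes): the amino acid transporter SLC7A1 at 0.24 (edgeR adjusted p = 0.0321) and MAP3K5, the kinase ASK1 that acts below IRE1, at 0.26 (edgeR adjusted p = 0.0210). The SLC7A1 call was lost without any 1 of 9 libraries: each GFP library (edgeR adjusted p 0.0794 to 0.19), LTR8B untreated replicates 1 and 4, and LTR8B IFNB replicates 1, 2 and 4 (0.0534 to 0.0666). The MAP3K5 call was lost without GFP untreated replicate 2 (edgeR adjusted p = 0.19) and without GFP IFNB replicate 1 (0.0818) or 2 (0.086).

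**Figure D2:**
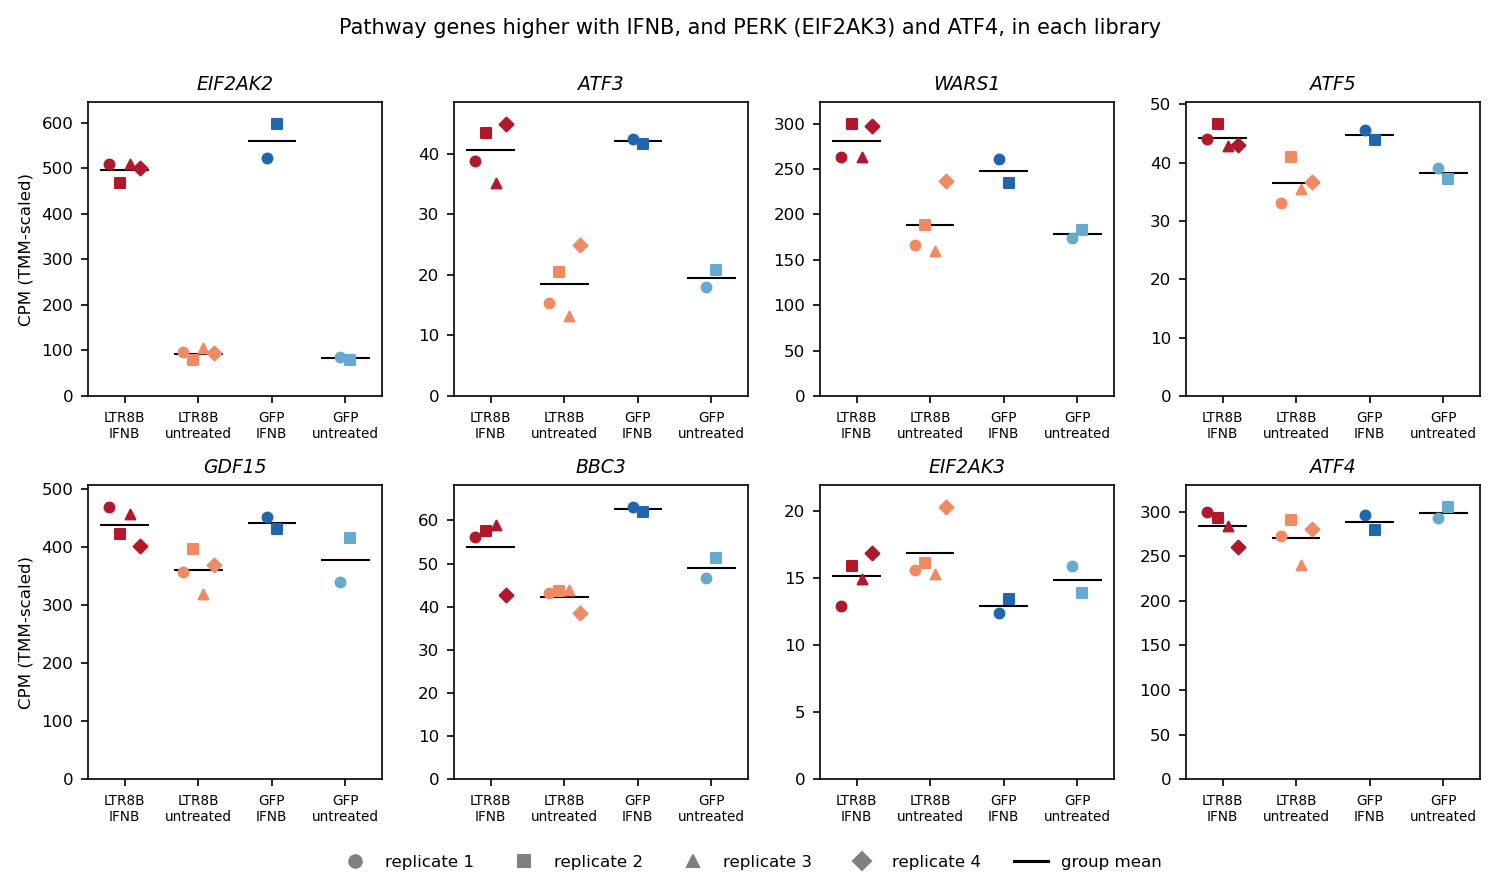
CPM after TMM scaling (vertical axis) of EIF2AK2, ATF3, WARS1, ATF5, GDF15, BBC3, EIF2AK3 and ATF4 in each library (points, shaped by replicate), with IFNB left of untreated for each guide and the group mean as a line. EIF2AK2 stands at 468 to 597 CPM with IFNB and 78.8 to 104 CPM untreated, while ATF4 overlaps between treatments in LTR8B and in GFP cells.

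The third question was whether the IFNB response differed between guides. The interaction of guide and IFNB called 0 of the 33 genes and 0% of the 16393 tested by edgeR, and 0 by DESeq2 and by limma-voom. At an unadjusted edgeR p under 0.05 there were 0 of the 33, against 2.98% of all genes. Estimates for the 33 ran from -0.16 to 0.22 on the log2 scale, with a median of 0.0026 against -0.0033 for all genes. Their intervals were wider than for the other comparisons: 28 of 33 lay within 1.5-fold and all 33 within 2-fold either way, with a lower bound of 0.574-fold for DDIT3 and an upper bound of 1.80-fold for HSPA5. For EIF2AK2 the difference of responses, LTR8B minus GFP, was -0.34 (edgeR adjusted p = 0.996, SE 0.13). In its list of 15 kinase, eIF2, eIF2B and phosphatase genes, 3 had an unadjusted edgeR p under 0.05 for the interaction, and 0 passed after adjustment. In the other lists outside the 33, 0 of 27, 0 of 12, 0 of 43 and 0 of 9 tested genes had such an unadjusted p.

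Within the LTR8B line, HSPA5, DDIT3 and ASNS were among the genes that varied more from library to library than the median of the 33 did. This pattern was chosen for description after the values were seen. Highest over lowest LTR8B library was 1.43-fold with IFNB and 1.83-fold untreated for HSPA5, 1.44-fold and 1.86-fold for DDIT3, and 1.46-fold and 1.65-fold for ASNS, but 1.04-fold and 1.05-fold for CALR. The median of this ratio was 1.19 with IFNB and 1.36 untreated over the 33, and 1.16 and 1.2 over the 11058 tested genes with a mean of at least 5 CPM. Replicate 4 was the highest of the 4 LTR8B libraries for 20 of the 33 with IFNB (60.6%, against 33.3% of the 11058 genes). Untreated it was highest for 24 (72.7%, against 24.9%), and in both treatments for 19 (57.6%, against 13.7%). Replicates 1, 2 and 3 were highest in both treatments for 1, 3 and 0 of the 33, against 8.46%, 13.3% and 5.07% of the 11058 genes. HSPA5, PPP1R15A, DNAJC3, HERPUD1 and ERN1 stood in this set with ASNS, PSAT1, STC2 and DDIT3. DDIT4 went the other way and was lowest in replicate 4 in both treatments, and CALR hardly varied. With IFNB, replicate 4 was the lowest of the 4 LTR8B libraries for 6 of the 33 (18.2%), against 32.4% of the 11058 genes. ATF4, TRIB3, CHAC1 and CEBPB were among these 6.

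**Figure D3:**
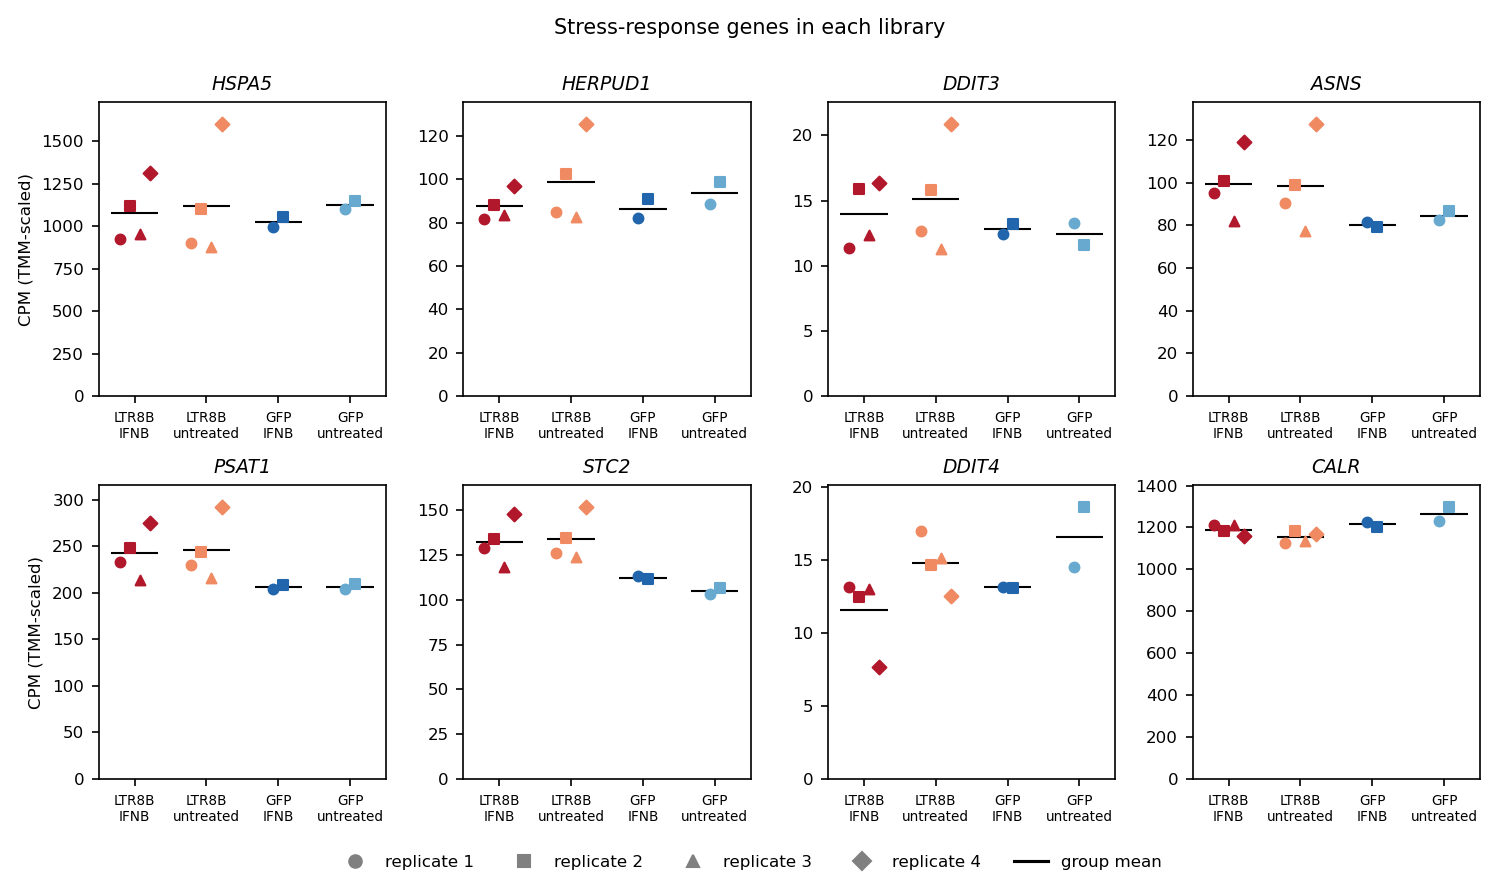
CPM after TMM scaling (vertical axis) of 8 of the 33 genes in each library (points, shaped by replicate), with IFNB left of untreated for each guide and the group mean as a line. Replicate 4 of the LTR8B libraries, the diamond, is highest for HSPA5, HERPUD1, DDIT3, ASNS, PSAT1 and STC2 in both treatments and lowest for DDIT4.

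The genes did not all rank the libraries alike. Replicate 3 was the lowest untreated LTR8B library for 17 of the 33 (51.5%, against 32.5% of the 11058 genes). Replicate 1 was the lowest LTR8B library with IFNB for 14 (42.4%, against 19.9%). The median deviation of the 33 from their group means, on the log2 scale, was 0.07 in replicate 4 with IFNB and 0.19 in replicate 4 untreated, and lay between -0.13 and 0.03 in the other 6 LTR8B libraries. CHAC1, PHGDH and SHMT2 were highest in replicate 2 untreated, and ATF4 in replicate 1 with IFNB and replicate 2 untreated. Other measures moved with replicate 4: mitochondrial genes held 3.97% of counts with IFNB and 4.55% untreated, the highest of the 4 in each group, and FN1, an extracellular matrix gene, was at its lowest of the 4, at 207 CPM with IFNB and 213 CPM untreated. FN1 was at 297 to 410.2 CPM with IFNB and 274 to 432 CPM untreated in the other LTR8B libraries. Depth did not stand apart, at 19411430 and 19495336 counts. Their part in the result was not tested. Without both replicate 4 libraries, STC2 remained past the threshold for the guide at 0.24 (edgeR adjusted p = 0.0326), PSAT1 was at 0.16, ASNS at 0.14 and ERN1 at 0.17.

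**Figure D4:**
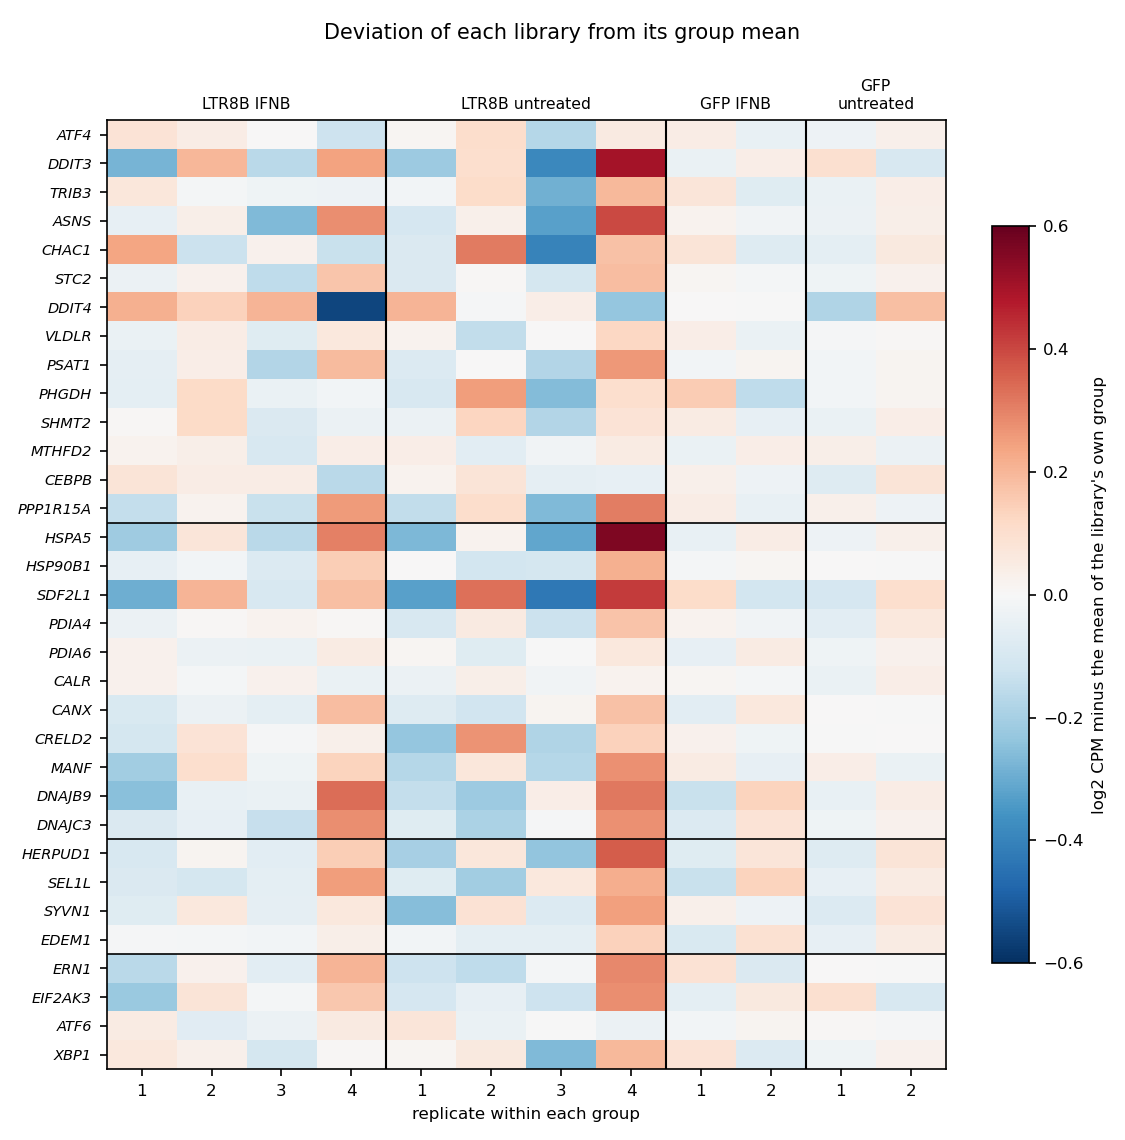
Deviation of each library from the mean of its own group, in log2 CPM, for the 33 genes (rows, by role) in the 12 libraries (columns); red is above and blue below the group mean. LTR8B replicate 4 is red for most genes in both treatments, most of all untreated, and blue for DDIT4. With IFNB it is also blue for some other genes, ATF4, CHAC1 and CEBPB among them.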

How the data were processed

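RNA-seq counts per gene for 12 libraries were used as the authors deposited them, per the file headers; the submitters' processing notes name Salmon 0.13.1, DESeq2 1.38.3 and hg38, and the role of each is not given in the sources used here. A second table that the authors deposited holds a normalized signal, the same counts divided by 1 factor per library (0.600 to 1.46), and was used only to check this. Gene IDs were named from a table of IDs and symbols (60415 of 60669 matched), and 0 columns were left unused.

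Genes were kept by edgeR's filterByExpr over the 4 groups (minimum count 10, total 15), scaled by TMM and fitted with edgeR 4.0.16 (robust quasi-likelihood) in R 4.3.3 over all 12 libraries, with 7 contrasts and Benjamini-Hochberg adjustment over 16393 genes; the threshold was 0.05. Intervals are 95% intervals of the fit. Totals of 12404270 to 28801579 counts set the precision of low genes. The procedure was tested on simulated data that held guide changes larger than any estimate for the 33 genes, and no IFNB changes. That test did not measure power for changes as small as those estimates. Alternatives were RLE factors, DESeq2 1.42.0, limma-voom 3.58.1, no filter, CPM of at least 1 in at least 2 libraries, a replicate block, and each library left out; a block within each guide and the loss of both LTR8B replicate 4 libraries were added after seeing the data. Members, gene lists and motifs were chosen with earlier results of these data known. All 33 members could be named, up to 4 genes of each other list past the threshold by smallest adjusted p, EIF2AK2 and the check genes; genes named for library patterns were chosen after their values were seen. Deviations used log2 CPM with a prior count of 2.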

Additional observations from a re-analysis of the deposited data

Results flagged for a closer look

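In 66 sets of 4 LTR8B libraries (33 genes, with IFNB and untreated), 6 had 1 library far from the other 3. This was by Dixon's test of the gap to its nearest neighbour over the whole range. Chance alone flags about 1 in 20 sets. The sets are not independent, because all 33 genes were measured in the same libraries, so the tally of 6 cannot be judged against that rate. The share flagged over all genes was not computed. Of the 6, 4 were replicate 4 with IFNB. That library was also the highest of the 4 for 33.3% and the lowest for 32.4% of the 11058 tested genes with a mean of at least 5 CPM. DDIT4 was low there at 7.69 CPM, against 12.4 to 13.1 CPM in the other IFNB libraries (0.873 of the range), and CEBPB was low at 80.2 CPM, against 92.7 to 94.7 CPM (0.862). SEL1L was high there at 191 CPM, against 149.6 to 155 CPM (0.879), and EDEM1 was high at 213 CPM, against 205 to 206 CPM (0.88). EIF2AK3 was high in untreated replicate 4 at 20.3 CPM, against 15.3 to 16.1 CPM (0.835). MTHFD2 was low in IFNB replicate 3 at 231 CPM, against 249.8 to 253 CPM (0.838).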

How the results depend on the processing

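Over all alternatives, 0 results reversed among those past the threshold. Counts of genes called (of the 33 in brackets) moved beyond 1.5 times as follows, and the cause was not tested. For the guide over both treatments, 351 (1) became 590 (2) with DESeq2, 775 (3) without the filter, 220 without both LTR8B replicate 4 libraries, and 93 to 461 (0 to 1) with 1 library left out; the lows came without 1 GFP library, as few as 93 without GFP untreated replicate 2. With IFNB, 58 became 120 with DESeq2, 260 without the filter and 21 to 69 with 1 library left out; untreated, 59 (0) became 177 (1), 325 (1) and 22 to 94. For IFNB, 0 of the 33 became 1 averaged over guides with DESeq2, without the filter and without both replicate 4 libraries, 0 to 1 with 1 library left out, and 1 in LTR8B cells without the filter. In GFP cells 524 genes became 344 to 594 with 1 library left out. The interaction's 0 became 13 without the filter and 0 to 1 with 1 library left out.

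Same-numbered LTR8B libraries correlated over all genes at 0.164, 0.125, 0.038 and 0.157 in their deviations and GFP pairs at 0.097. Differently numbered LTR8B pairs correlated at -0.122 to 0.053, below the pairs of replicates 1, 2 and 4, while the replicate 3 pair lay inside that range. In groups of 2 libraries the deviations mirror each other, so the GFP pairs hold only 1 value. The labels do not say what a number stands for, so the main fit did not pair the libraries by number. Pairing within the LTR8B line is thus possible, and the calls for IFNB depend on it as given below. Over the 33 genes the same LTR8B pairs correlated at 0.761, 0.449, 0.369 and 0.818, a hint from the data and not from the design. The hint was not uniform: LTR8B IFNB replicate 3 correlated more with untreated replicate 1 (0.443), and same-numbered GFP pairs correlated at -0.111. With a replicate block, 181 genes and 2 of the 33, STC2 and PSAT1 (edgeR adjusted p = 0.0417), passed for the guide and 1 of the 33, DDIT4 (0.0414), for IFNB over guides; MAP3K5 for the guide (0.0537) and GDF15 in LTR8B cells (0.0668) did not pass. With the block within each guide, 1598 genes and 2 of the 33, DDIT4 (edgeR adjusted p = 0.0148) and MTHFD2 (0.0242), passed for IFNB over guides, 1 of the 33, DDIT4 (0.0374), in LTR8B cells, where GDF15 (0.083) did not pass, and 4 genes for the interaction. Without both replicate 4 libraries, GDF15 (edgeR adjusted p = 0.0535) and ATF5 (0.0867) in LTR8B cells and SLC7A1 for the guide (0.0948) did not pass, nor did BBC3 in LTR8B cells with limma-voom (adjusted p = 0.0562). Counts over the 12 libraries were lowest for CHAC1 (1485), SDF2L1 (2380), ERN1 (2816), DDIT3 (3470) and DDIT4 (3491), where depth limits precision most.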
